A study of Zea mays with 24 samples.

Results

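In maize, 10 genes of the pathway that turns phenylalanine into monolignols, the building blocks of lignin, were followed along a developing leaf and between 2 genotypes. They were taken by identifier out of the 39634 genes in each deposited table, and all 10 were found in all 4 tables. They are phenylalanine ammonia-lyase PAL1 (GRMZM2G074604) and 2 further PAL genes (GRMZM2G029048 and GRMZM2G334660), cinnamate 4-hydroxylase C4H (GRMZM2G139874), the 4-coumarate:CoA ligase gene 4CL (GRMZM2G075333), the caffeoyl-CoA O-methyltransferase gene ccoaomt1 (GRMZM2G127948), the cinnamoyl-CoA reductase gene CCR1 (GRMZM2G131205), the ferulate 5-hydroxylase gene F5H (AC210173.4_FG005), the caffeic acid O-methyltransferase gene bm3 (AC196475.3_FG004) and the cinnamyl alcohol dehydrogenase gene bm1 (GRMZM5G844562).

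Phenylalanine ammonia-lyase removes ammonia from phenylalanine, C4H hydroxylates the ring of the resulting cinnamate, and 4CL joins the product to coenzyme A. From there one branch leads to flavonoids and another to lignin. On the lignin branch the O-methyltransferases and F5H decorate the ring, and CCR and cinnamyl alcohol dehydrogenase reduce the side chain to an alcohol. Lignin stiffens the walls of xylem vessels and fibres in leaf veins, and maize plants that lack bm1 or bm3 function have brown midribs.

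The libraries came from leaf 2 of seedlings of the inbred W22 at 9 days of age grown with 16 h of light per day at 500 µmol m-2 s-1, 28 degrees C and 40% humidity, with dct2-1 mutants and wild-type plants sampled in 4 segments. Each genotype and segment had 3 libraries of 15 pooled plants, which makes 24 libraries in 8 groups. Position is given relative to a ligule, the border of blade and sheath, and which leaf's ligule is not stated here. Segment -4 is the base of the blade, which does not photosynthesise. Segment -1 lies just below the point where the blade emerges and turns from sink to source. Segment +4 is lit mid-leaf and +10 is the tip. dct2-1 is an allele of pDCT2, a chloroplast dicarboxylate transporter gene of C4 photosynthesis, and the labels do not describe its lesion.

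The tables hold a single pooled level per gene for each of 2 groups called q1 and q2, in FPKM (fragments per unit of transcript length and of sequencing depth), and do not state which of them is dct2-1 and which is wild type. Directions are therefore given as q2 relative to q1, and a level is the authors' value for a whole group, with no spread between libraries. pDCT2 itself was lower in q2 in the authors' deposited tables, at 7.84, 12.5, 8.91 and 9.50 FPKM along the leaf, against 37.8, 657, 633 and 310.4 FPKM in q1. Errors given with ± are standard errors of a log2 change implied by the deposited test statistic, and a gene was called at an adjusted p under 0.05 in the authors' Cuffdiff test. In whole segments, fewer cells of a type and less RNA per cell cannot be told apart.

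Members that were called were higher in q2 at the leaf base, and from mid-leaf to tip all but 1 of those called were lower. At segment -4, 5 of the 8 tested members were higher in q2 and 0 were lower, in the authors' Cuffdiff test, and at an unadjusted p under 0.05 the counts were 8 higher and 0 lower, beside 20.7% and 17.5% of all tested genes. At the adjusted threshold, of all genes tested there 15.2% were higher, 12.7% lower and 27.9% called in either direction. The median log2 change of the tested members at -4 was 0.43, against 0.02 for all tested genes. At segment +4, 7 of 8 tested members were lower in q2 and 1, PAL GRMZM2G334660, was higher, where 22.8% of all tested genes were lower, 19.5% higher and 42.2% called. The members' median at +4 was -1.32, against 0.01 for all tested genes.

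At the tip, segment +10, 6 of 8 tested members were lower in q2 and 0 were higher in the Cuffdiff test, or 7 lower and 0 higher at an unadjusted p under 0.05, where 25.4% of all tested genes were lower and 25.2% higher. Of all genes tested at +10, 22.3% were lower, 21.5% higher and 43.8% called in either direction. The median log2 change was -1.38 for the members and 0.02 for all tested genes. The transition segment -1 was mixed, with 1 of 10 members higher, 3 lower and 6 not called, beside 9.48% higher, 8.22% lower and 17.7% called among all tested genes. F5H was tested at -1 alone, PAL GRMZM2G334660 at -1 and +4, and CCR1 in every segment but +4, where the authors' test failed. Scaling q2 and q1 to a common sum of FPKM would add 0.04, 0.10, 0.45 and 0.35 to every log2 change at -4, -1, +4 and +10. On that scale 7 members were higher and 0 lower at -4, beside 17.8% higher and 11.1% lower among all genes. At -1, 1 was higher and 2 were lower, beside 13.2% and 6.41%. At +4, 1 was higher and 5 were lower, beside 45.2% and 13.5%, and at +10, 0 were higher and 6 lower, beside 43.1% and 13.5%.

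Markers of other cell states moved with the groups too. Among all tested genes, 15.2% were higher and 12.7% lower at -4, 19.5% and 22.8% at +4, and 21.5% and 22.3% at +10. Of 8 photosynthesis markers, 7 were higher in q2 at -4 and 5 of 6 tested were lower at +4. At -1, 1 was lower and 7 were not called, where 8.22% of all tested genes were lower. At +10, 4 were lower and 4 were not called. The markers' summed levels were 3711 FPKM in q2 and 1901 FPKM in q1 at -4, 10502 FPKM in q2 and 27983 FPKM in q1 at +4, and 36663 FPKM in q2 and 56313 FPKM in q1 at +10. The sums at +4 leave out pep1 and pdk1, which the authors' test did not process there for depth and which are listed at 0 in q1 (pep1) or in q2 (pdk1). Of 8 genes of dividing or meristem cells, 5 of 6 tested were lower in q2 at -4. The list's sums were 249.6 FPKM in q2 and 438 FPKM in q1 there, and at most 20.9 FPKM in q2 and 10.5 FPKM in q1 further up. Of 2 tested at +4, RNRS1 was higher, at 20.5 FPKM in q2 and 3.99 FPKM in q1, and the other was lower. RNRS1, the only one tested at +10, was higher there, at 19.5 FPKM in q2 and 3.88 FPKM in q1. The levels of kn1 and lg3 were at most 0.0767 FPKM throughout. Of 4 epidermis genes, 1 was higher at -4, and at both +4 and +10 ocl1 was higher and gl1 lower, with the list's sums between 36.0 and 311 FPKM in q2 and between 63.7 and 279 FPKM in q1. Their part in the members' changes was not tested.

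**Figure D1:**
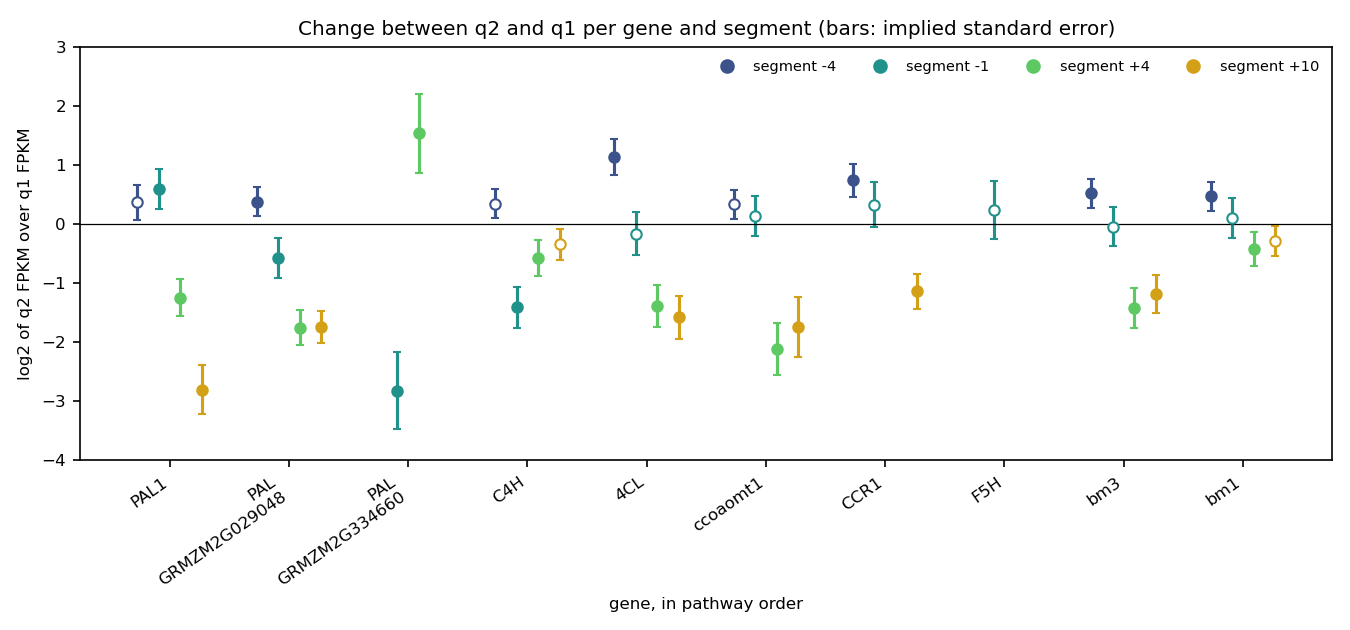
Log2 of q2 FPKM over q1 FPKM for each of the 10 genes (horizontal axis, pathway order) in the 4 leaf segments (colours), with the implied standard error as bars. Filled points were called in the authors' Cuffdiff test and open points were not, and combinations that were not tested are absent. Points at -4 lie above 0, and at +4 and +10 all tested genes but PAL GRMZM2G334660 lie below 0, though with q2 and q1 scaled to a common sum bm1 at +4 (0.025) and +10 (0.064) and C4H at +10 (0.0050) would lie above it. Without pep1 and pdk1 in that sum, bm1 at +4 (-4.8e-04) and C4H at +10 (-0.0093) would lie just below 0.

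Among the PAL members, PAL1 had the highest level at the leaf base, and other PAL genes were sought by symbol only. PAL1 stood at 264, 240.4, 13.1 and 2.55 FPKM in q2 along segments -4, -1, +4 and +10, against 205, 159, 31.0 and 17.9 FPKM in q1. The level in q2 was the higher one at both lower segments and the lower one at both upper segments. At -1 the log2 change of PAL1 was 0.60 ± 0.33 (adjusted p = 0.0147 in the authors' deposited table), and at -4 it was 0.37 ± 0.29, which was not called (adjusted p = 0.0823). PAL1 was lower in q2 by -1.25 ± 0.32 at +4 and by -2.81 ± 0.41 at +10. Both upper calls carried the smallest adjusted p of the authors' Cuffdiff test in their tables, 2.88e-04 at +4 and 2.59e-04 at +10. PAL GRMZM2G029048, 4CL, ccoaomt1 and bm3 had these same values in both segments.

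The second PAL gene, GRMZM2G029048, was highest at -1 in both groups. It stood at 59.4, 107, 21.8 and 13.7 FPKM in q2, against 45.6, 158, 73.8 and 46.0 FPKM in q1. Unlike PAL1 it was already lower in q2 at -1, with a log2 change of -0.57 ± 0.34 (adjusted p = 0.0266 in the authors' deposited table), a call that was lost when both groups were scaled to the same sum of FPKM (-0.47). At -4 PAL GRMZM2G029048 was higher by 0.38 ± 0.25 (adjusted p = 0.0273 in the authors' deposited table), and it was lower by -1.76 ± 0.30 at +4 and by -1.75 ± 0.27 at +10. The log2 change of PAL1 exceeded that of PAL GRMZM2G029048 by 1.17 ± 0.47 at -1 and lay below it by -1.06 ± 0.49 at +10, while at -4 they differed by -0.02 ± 0.38. These errors treat the genes' errors as independent, and the differences between members inside a table were not tested.

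The third PAL gene, GRMZM2G334660, had low levels, and was the one member called higher in q2 at +4. It stood at 0.169, 0.459, 1.48 and 1.21 FPKM in q2, against 0.0740, 3.25, 0.511 and 0.739 FPKM in q1. In q1 its highest level was at -1, and in q2 at +4. It was lower in q2 by -2.82 ± 0.66 at -1 (adjusted p = 7.77e-04 in the authors' deposited table) and higher by 1.53 ± 0.68 at +4 (adjusted p = 0.00346), and was not tested at -4 and +10. With a pseudocount of 1 FPKM these log2 changes were -1.54 and 0.72.

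The 3 PAL genes lie side by side on chromosome 5. In the deposited coordinates, of a build that no label or header names, PAL1 spans 186677003 to 186680745, GRMZM2G029048 spans 186726199 to 186730209 and GRMZM2G334660 spans 186732963 to 186735665. The stretch covers 58.7 kilobases and holds no other listed gene, with 45.5 kilobases between the first pair and 2.75 kilobases between the second. No label or header says how reads that match more than one PAL gene were counted, so the split between the copies is uncertain. PAL1 made up 81.6% of the summed FPKM of these 3 PAL genes in q2 at -4 and 81.8% in q1. Its share was 69.2% in q2 and 49.6% in q1 at -1, 36.0% in q2 and 29.5% in q1 at +4, and 14.6% in q2 and 27.6% in q1 at +10. The summed PAL level was 323, 347, 36.4 and 17.4 FPKM in q2, against 250.4, 321, 105 and 64.6 FPKM in q1.

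C4H, the cytochrome P450 that acts after PAL, differed most between the groups at the transition segment. It stood at 51.1, 38.1, 16.4 and 25.1 FPKM in q2, against 40.3, 101, 24.5 and 31.9 FPKM in q1. The peak that q1 had at -1 was missing in q2, where the highest of the 4 levels was at -4. The log2 change of C4H at -1 was -1.41 ± 0.34 (adjusted p = 7.77e-04 in the authors' deposited table), next to 0.34 ± 0.24 at -4 and -0.34 ± 0.26 at +10, which just missed the threshold (adjusted p = 0.0533 and 0.0508). C4H was lower at +4 by -0.58 ± 0.31 (adjusted p = 0.00329 in the authors' deposited table), but with both groups scaled to a common sum of FPKM this was -0.12 and not called, and the change at +10 became 0.0050.

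C4H (chromosome 8, 83792801 to 83796118) lay furthest from its neighbours in the pathway at -1 and +10, though differences between members were not tested. At -1 its log2 change lay -2.01 ± 0.48 below that of PAL1 and -1.25 ± 0.50 below that of 4CL, and at +10 it lay 2.46 ± 0.49 and 1.24 ± 0.45 above them. At -4 the same differences were -0.02 ± 0.38 and -0.80 ± 0.39, and at +4 they were 0.67 ± 0.44 and 0.81 ± 0.48. The ratio of C4H to the summed level of the PAL members was 0.110 in q2 and 0.316 in q1 at -1, and 1.44 in q2 and 0.493 in q1 at +10. At -4 the ratio was 0.158 in q2 and 0.161 in q1. Such ratios inside a group do not depend on how the tables were scaled.

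4CL had the largest change of the 8 tested members at the leaf base. It stood at 29.7, 153, 12.9 and 7.05 FPKM in q2, against 13.5, 172, 33.8 and 21.1 FPKM in q1. At -4 it was higher in q2 by 1.14 ± 0.30 (adjusted p = 4.92e-04 in the authors' deposited table), the one tested member past 2-fold there. At -1, where both groups were highest, its log2 change was -0.17 ± 0.37 (adjusted p = 0.649 in the authors' deposited table). It was lower by -1.39 ± 0.36 at +4 and by -1.58 ± 0.37 at +10. 4CL lies on chromosome 5 from 89152268 to 89156855, so that 5 of the 10 members, with bm1 and the PAL genes, are on this chromosome.

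On the lignin branch, ccoaomt1, which methylates the caffeoyl-CoA ring, was close between the groups in the lower leaf and lower in q2 above. Its levels were 129, 89.4, 3.97 and 2.85 FPKM in q2, against 102, 81.4, 17.2 and 9.52 FPKM in q1. The log2 changes were 0.33 ± 0.24 at -4 and 0.13 ± 0.35 at -1, and neither was called (adjusted p = 0.058 and 0.697 in the authors' deposited tables). At +4 ccoaomt1 was lower in q2 by -2.12 ± 0.44, the largest fall among the members in that segment, and at +10 by -1.74 ± 0.51. The gene (chromosome 6, 79193304 to 79195490) was at its highest at -4 in both groups.

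CCR1, which commits CoA esters to monolignols, kept high levels into the upper leaf. It stood at 68.1, 274, 214 and 152 FPKM in q2, against 40.8, 219, 349 and 335 FPKM in q1. It was highest at -1 in q2 and at +4 in q1. CCR1 was higher in q2 by 0.74 ± 0.28 at -4 (adjusted p = 4.92e-04 in the authors' deposited table), was not called at -1 (0.33 ± 0.38, adjusted p = 0.319) and was lower by -1.14 ± 0.30 at +10 (adjusted p = 2.59e-04). At +4 its level in q2 was the lower one, with a log2 ratio of -0.71, and since the deposited test failed there it has neither error nor p. CCR1 lies on chromosome 1 from 211520098 to 211526173.

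F5H, which opens the route to syringyl units, was the weakest member next to PAL GRMZM2G334660. Its levels were 0.627, 3.63, 0.0433 and 0.219 FPKM in q2, against 0.488, 3.07, 0.183 and 0.493 FPKM in q1. Both groups had a single peak at -1, where the log2 change of 0.24 ± 0.49 was not called (adjusted p = 0.608 in the authors' deposited table). It was not tested elsewhere. F5H lies on chromosome 1 from 224037327 to 224040990.

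The bm3 O-methyltransferase, which acts after F5H, was the most abundant member at -1. It stood at 133, 478, 16.6 and 11.5 FPKM in q2, against 92.8, 493, 44.5 and 26.1 FPKM in q1. Between -1 and +4 it dropped to 0.0347 of its level in q2 and to 0.0903 in q1. It was higher in q2 at -4 by 0.52 ± 0.24 (adjusted p = 0.00127 in the authors' deposited table) and lower by -1.43 ± 0.33 at +4 and by -1.18 ± 0.32 at +10. At -1 its log2 change was -0.05 ± 0.33 (adjusted p = 0.902 in the authors' deposited table), or 0.054 with both groups scaled to a common sum, and was not called on either scale. The gene lies on chromosome 4 from 32249664 to 32251536.

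The bm1 dehydrogenase, which makes the alcohols, had log2 changes between -0.43 and 0.47 along the leaf. Its levels were 47.9, 149.9, 38.7 and 41.4 FPKM in q2, against 34.5, 139.8, 52.0 and 50.5 FPKM in q1. It was higher in q2 by 0.47 ± 0.24 at -4 (adjusted p = 0.00455 in the authors' deposited table), and the log2 changes of 0.10 ± 0.33 at -1 and -0.29 ± 0.26 at +10 were not called (adjusted p = 0.775 and 0.105), and the change at +10 was 0.064 on the common sum. At +4 bm1 was lower by -0.43 ± 0.29 (adjusted p = 0.0263 in the authors' deposited table), but its log2 change was 0.025 and not called with both groups scaled to a common sum of FPKM. Its log2 change lay above that of bm3 by 1.00 ± 0.44 at +4 and by 0.90 ± 0.41 at +10. The gene lies on chromosome 5 from 98993015 to 98997371.

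**Figure D2:**
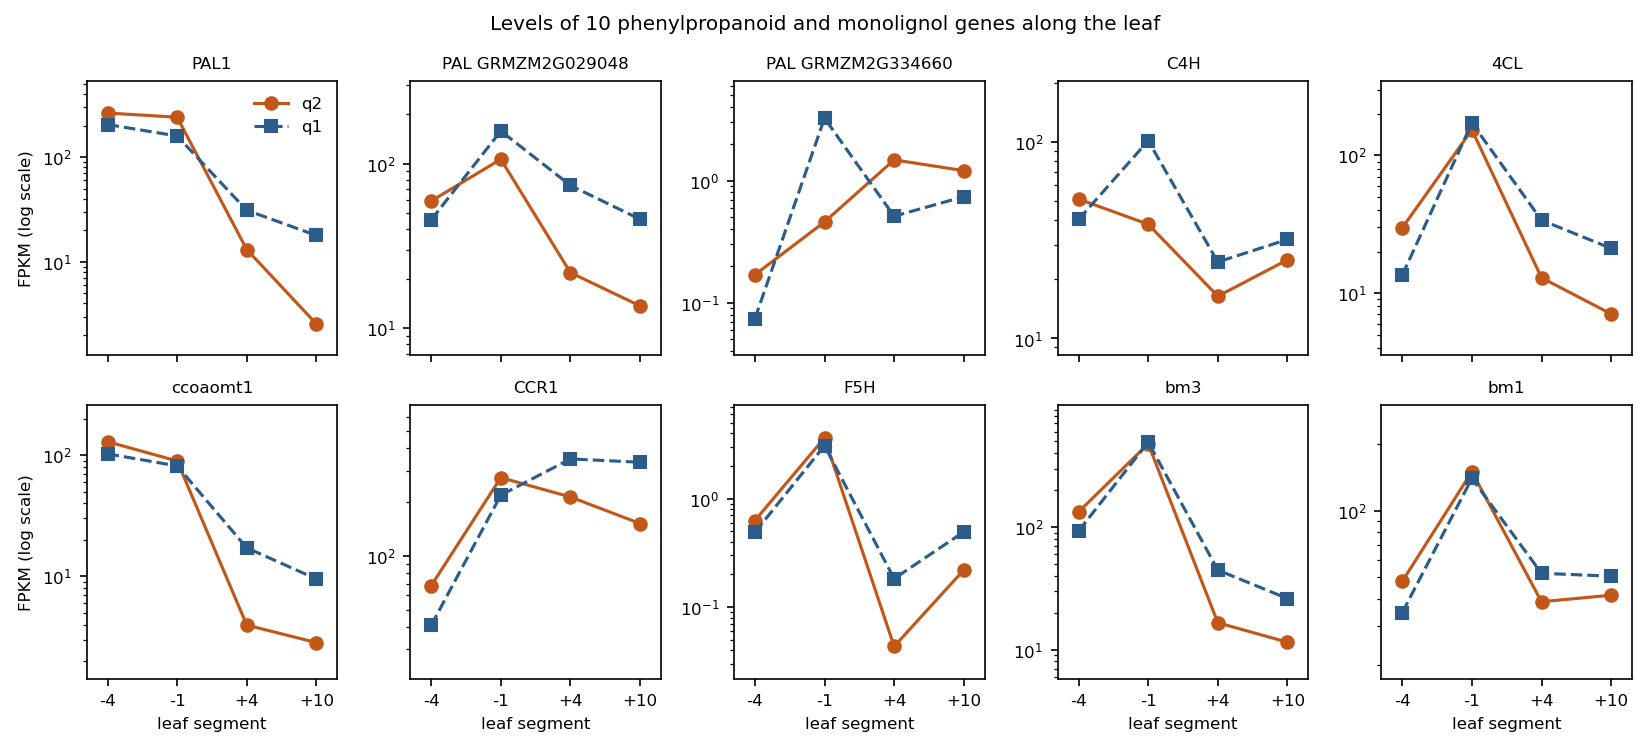
FPKM on a log axis in each leaf segment for q2 (orange circles) and q1 (blue squares), 1 panel per gene, each point being the authors' pooled value of a group. PAL1 and ccoaomt1 start high at -4, most other members peak at -1, and CCR1 stays at or above 152 FPKM from -1 to +10 in both groups.

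The next question was whether the change between q2 and q1 itself differed between segments. For each gene the log2 change at one segment was subtracted from that at another, and the difference was called with a normal test on the implied errors, adjusted over all genes with a statistic in both tables. Of 46 such differences among the members 16 were called, and 15 of these were negative, meaning a change toward lower levels in q2 further up the leaf. From -4 to +4, 5 of 7 members were called, against 9.50% of all genes compared, and from -4 to +10, 6 of 8, against 9.27%. From -1 to +4 there were 3 calls of 8, against 3.49%, and from -1 to +10 there was 1 of 8, against 3.48%. From -4 to -1, C4H was called and 7 others were not, against 0.958%, and from +4 to +10 none of 7 was called, against 0.475%. Pairs of segments that share a table are not independent of each other.

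4CL had the largest such difference from -4 to +4, at -2.53 ± 0.47, with ccoaomt1 at -2.45 ± 0.51, PAL GRMZM2G029048 at -2.14 ± 0.38, bm3 at -1.95 ± 0.41 and PAL1 at -1.61 ± 0.43. C4H and bm1, at -0.92 ± 0.39 and -0.90 ± 0.38, were not called. With the smaller errors that the deposited p implies, both were called, as were 37.5% of all genes compared. PAL1 stood out between the lower and upper leaf, with -3.17 ± 0.50 from -4 to +10 and -3.40 ± 0.53 from -1 to +10. From +4 to +10 its further fall of -1.56 ± 0.52 was not called. PAL GRMZM2G334660 gave the one positive call, at 4.36 ± 0.94 from -1 to +4.

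Along the leaf, the pathway as a whole was highest at -1. The summed FPKM of the 10 genes was 782, 1533, 339 and 257 in q2, against 575, 1529.7, 627 and 539 in q1. The tables were normalized separately, so levels were set side by side across segments and not tested. Of the 10 members, 6 in q2 and 7 in q1 were highest at -1, and the same counts were found with every group scaled to a common sum. The share of all genes that were highest at -1 is not given here. The highest over the lowest segment was 103-fold for PAL1 in q2 and 11.5-fold in q1, 45.3-fold in q2 and 10.7-fold in q1 for ccoaomt1, 41.6-fold in q2 and 18.9-fold in q1 for bm3, and 3.88-fold in q2 and 4.05-fold in q1 for bm1. C4H varied 3.12-fold in q2 and 4.13-fold in q1, and PAL GRMZM2G029048 varied 7.79-fold in q2 and 3.47-fold in q1. The members with low levels also had wide ranges, at 83.9-fold in q2 and 16.8-fold in q1 for F5H and 8.74-fold in q2 and 43.9-fold in q1 for PAL GRMZM2G334660.

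The makeup of the pathway's transcripts also shifted up the leaf. PAL1 was the most abundant member at -4, with 33.7% of the summed FPKM in q2 and 35.6% in q1. At -1 bm3 took its place, with 31.1% in q2 and 32.2% in q1. At +4 and +10 CCR1 held 63.1% and 59.0% in q2, against 55.7% and 62.1% in q1. The level of CCR1 relative to bm3 was 0.513 in q2 and 0.440 in q1 at -4, 12.9 in q2 and 7.85 in q1 at +4, and 13.2 in q2 and 12.8 in q1 at +10. Among all 39634 listed genes, 7 members in q2 and 6 in q1 reached the 90th percentile of level at -4 and 8 in either group did so at -1. At +4, 2 did in q2, against 7 in q1, and at +10 the counts were 2 in q2 and 5 in q1. This ranking does not depend on the scale of a table.

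**Figure D3:**
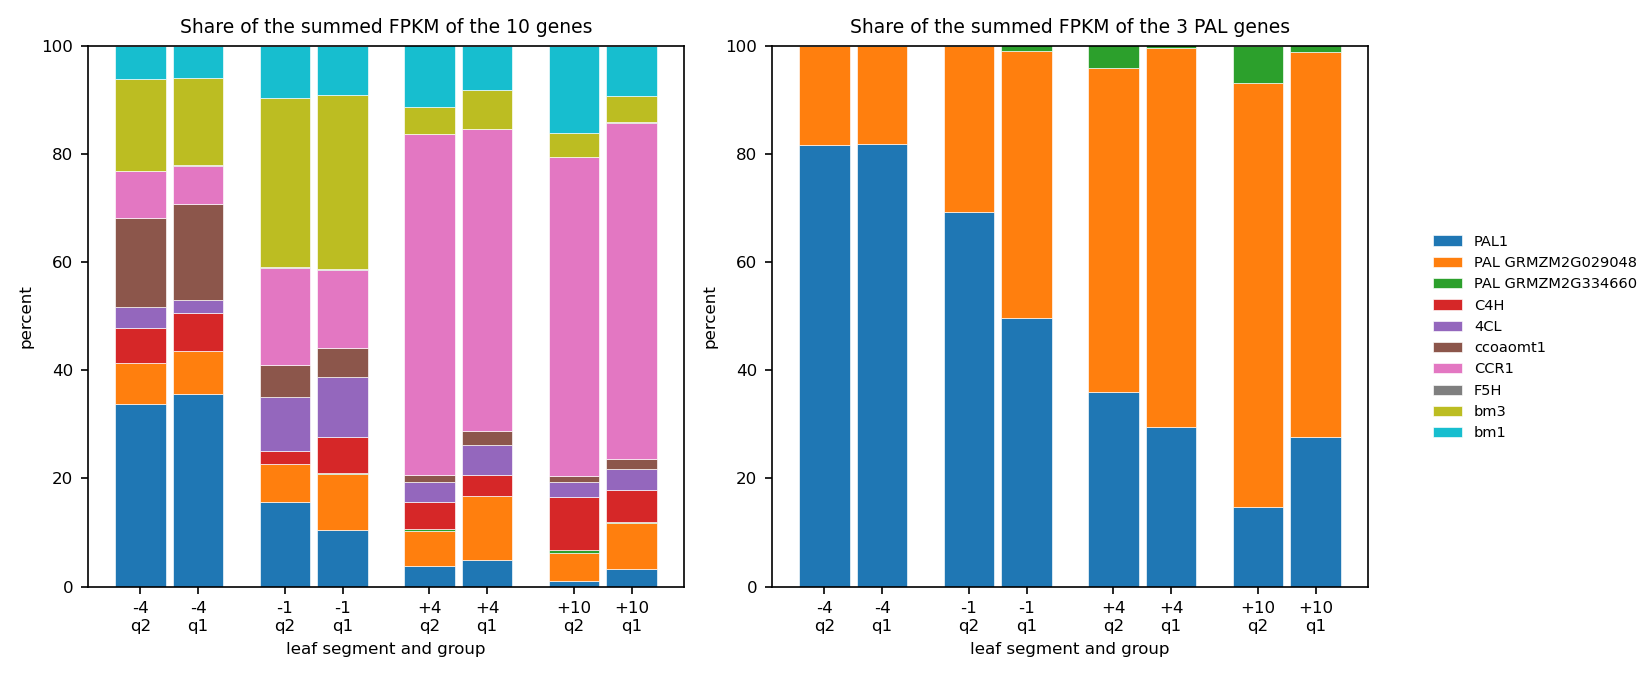
Left, percent of the summed FPKM of the 10 genes held by each, and right, percent of the summed FPKM of the 3 PAL genes, for q2 and q1 in each leaf segment. CCR1 takes 63.1% and 59.0% of the sum in q2 at +4 and +10, against 55.7% and 62.1% in q1, and PAL1 falls to 14.6% of PAL in q2 at +10, against 27.6% in q1.

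Other genes around the pathway were found by symbol in lists that hold 55 genes in all, with no match for other PAL, C4H, 4CL or shikimate-ester genes. RefSeq entries paired with 18775 of the 39634 listed genes. They gave no symbol for the members C4H, PAL GRMZM2G029048 and PAL GRMZM2G334660. Further genes of these enzymes may thus be listed without having been found. Of 3 further monolignol enzyme genes (cad1, ccr2 and CCOAOMT2), 0 were called at -4, where they summed to 65.3 FPKM in q2 and 77.3 FPKM in q1. At -1, 1 was higher in q2. Both tested genes at +4 and the single one at +10 were lower, on levels of at most 3.68 FPKM. Among all tested genes, 9.48% were higher at -1, 22.8% were lower at +4 and 22.3% were lower at +10. The gene higher at -1 was cad1, a gene named for cinnamyl alcohol dehydrogenase, at 13.4 FPKM in q2, against 6.88 FPKM in q1 (log2 change 0.96 ± 0.40 in the authors' deposited table). In the phenylalanine supply list CM2, a chorismate mutase gene, was lower at +4 (-0.76 ± 0.36) and +10 (-0.76 ± 0.33), and CM1 was not called in any segment.

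Genes of lignin polymerisation went in both directions. LAC1 (GRMZM5G842071), of the laccases that oxidise monolignols in the wall, stood at 4.28, 84.5, 103 and 76.7 FPKM in q2, against 0.575, 33.2, 66.4 and 43.1 FPKM in q1, and was called higher in all 4 of the authors' deposited tables. Its log2 change was 1.35 ± 0.34 at -1, 0.63 ± 0.30 at +4 and 0.83 ± 0.26 at +10. The laccase gene lac5 had 24.7 FPKM in q2 and 11.8 FPKM in q1 at -1 (1.06 ± 0.38) and was at most 0.0621 FPKM at +4 and +10. The peroxidase gene PRX42 went the other way, at 10.3, 39.1 and 23.7 FPKM in q2 at -1, +4 and +10, against 21.5, 134 and 107 FPKM in q1, with log2 changes of -1.07 ± 0.42, -1.78 ± 0.30 and -2.17 ± 0.28. Of 13 laccase and peroxidase genes, 3 were higher and 1 lower of 5 tested at -1, 1 higher and 2 lower of 4 at +4, and 1 higher and 2 lower of 3 at +10. Among all tested genes, 9.48% were higher and 8.22% lower at -1, 19.5% and 22.8% at +4, and 21.5% and 22.3% at +10.

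Among regulators, myb42 was higher in q2 at -1, +4 and +10. It encodes a MYB factor known to repress lignin genes, and stood at 0.601, 11.9, 69.3 and 94.7 FPKM in q2, against 0.341, 4.40, 11.9 and 28.6 FPKM in q1. The log2 change of myb42 was 1.43 ± 0.45 at -1, 2.54 ± 0.33 at +4 and 1.73 ± 0.27 at +10 in the authors' deposited tables, and it was not tested at -4. The related repressor gene myb31 (GRMZM2G050305) was higher at -4, at 3.98 FPKM in q2 and 1.96 FPKM in q1 (1.02 ± 0.49), and was not called at -1. MYB63, a gene named after a lignin activator of Arabidopsis, had 8.45 FPKM in q2 and 3.68 FPKM in q1 at -1 (1.20 ± 0.60). Whether these factors act on the 10 members in these leaves was not tested.

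Among secondary wall genes, bk2, a COBRA-like gene needed for stalk strength, was higher in q2 at the base and lower in the upper leaf. It stood at 2.57, 30.2, 2.91 and 1.12 FPKM in q2, against 0.463, 22.2, 14.7 and 13.3 FPKM in q1, and was called higher at -4 and lower at +4 (-2.34 ± 0.41) and +10 (-3.56 ± 0.52) in the authors' deposited tables. The cellulose synthase gene CesA12 was higher in q2 at -1, with 18.8 FPKM in q2 and 11.6 FPKM in q1 (0.70 ± 0.35), and lower at +4, with 0.816 FPKM in q2 and 1.78 FPKM in q1 (-1.12 ± 0.54). Of 4 secondary wall genes, 1 of 2 tested was higher at -4 and 1 of 2 at -1, and 2 of 2 were lower at +4 and 1 of 1 at +10. On the flavonoid branch, 3 of 5 tested genes were lower in q2 at -1, 4 of 6 at +4 and 2 of 5 at +10, and 1 of 4, BZ1, was higher at -4 (1.06 ± 0.34). Beside these wall and flavonoid counts, 15.2% of all tested genes were higher and 12.7% lower at -4, and 9.48% and 8.22% at -1. At +4 these shares were 19.5% and 22.8%, and at +10 they were 21.5% and 22.3%. The chalcone isomerase gene chi1 had 51.0, 10.8 and 12.0 FPKM in q2 at -1, +4 and +10, against 107, 48.9 and 35.6 FPKM in q1. The chalcone synthase gene c2 was lower at -1 (-0.66 ± 0.33) and +4 (-0.91 ± 0.29).

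**Figure D4:**
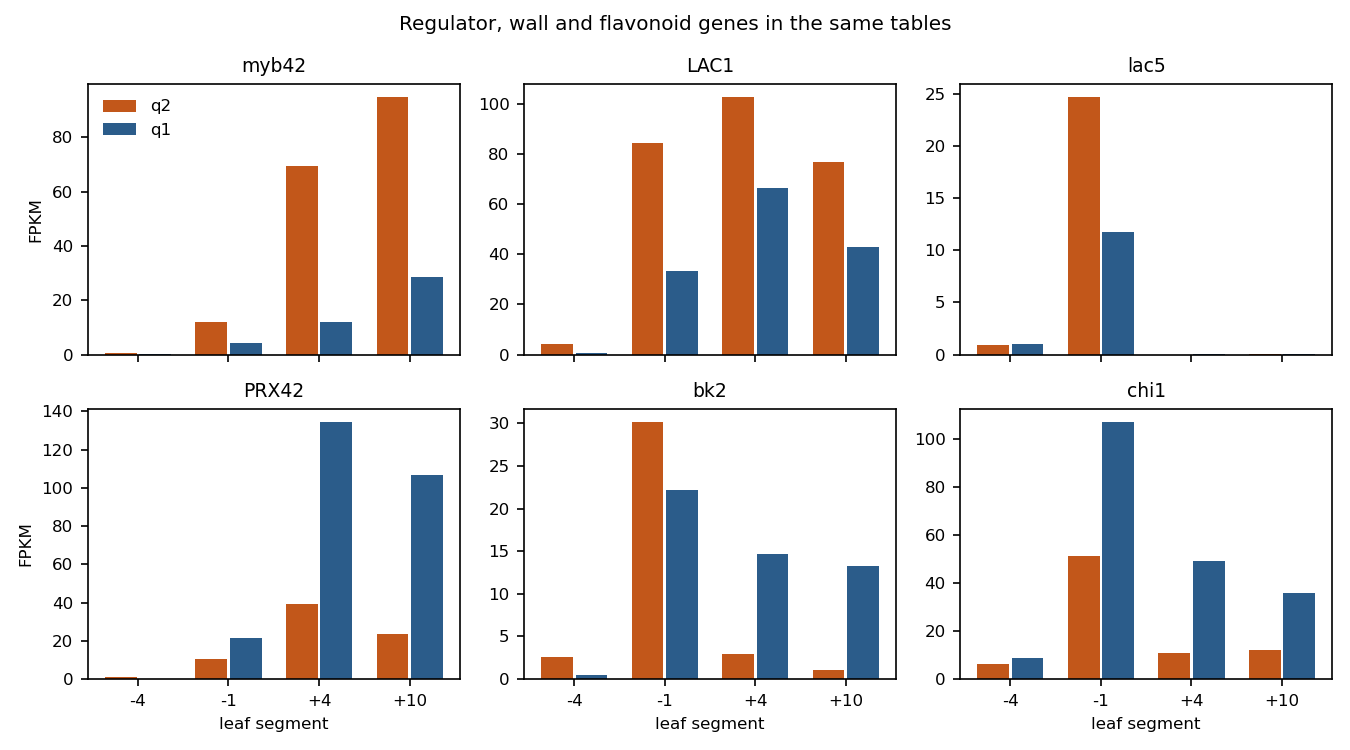
FPKM in each leaf segment for q2 (orange, left bar) and q1 (blue, right bar) of a MYB gene, laccases, a peroxidase, a wall gene and chalcone isomerase. myb42 and LAC1 are higher in q2 at -1, +4 and +10, while PRX42 and chi1 are lower there and bk2 is lower at +4 and +10.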

How the data were processed

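RNA from 24 maize leaf libraries in 8 groups was sequenced, and 4 tables, 1 per segment, were analysed, each comparing q2 with q1. The submitters' processing notes name GSNAP, an aligner, and Cuffdiff, which tests groups. Not given in the sources used here: tool versions, genome build, annotation, strand handling and the treatment of reads shared by gene copies. The authors deposited a pooled FPKM per gene and group, so depth and spread between libraries are unknown. Each test score (Cuffdiff's statistic) was deposited by the authors and, divided into the log2 change, gave its standard error. The p-value and adjusted q-value are the authors' deposited ones, and the p corresponds to a normal quantile 1.74 times the statistic, so its errors are smaller than those printed.

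Genes were called at an adjusted p under 0.05. Changes between segments were compared with a normal test on the difference, adjusted by Benjamini-Hochberg over all genes, taking the tables' errors as independent. Alternatives were a common sum of FPKM, median centring, a pseudocount of 1 FPKM, an adjusted p under 0.01, a 2-fold minimum and a filter of 1 FPKM. A common sum without pep1 and pdk1 and errors scaled to the deposited p were added after seeing the data. Member names follow the gene list that set the members. RefSeq (Zm-B73-REFERENCE-NAM-5.0) paired 7 of the 10 identifiers, gave a symbol for 5 of them (for CCR1, CCR and cncr1), and named the other listed genes. Computation used Python 3.11.15 with pandas 2.3.3 and scipy 1.17.1. From each list and segment, up to 3 called genes with at least 5 FPKM in the higher group could be named, largest change first. The values of myb31 and CM1, those of kn1 and lg3, the -4 calls of LAC1 and bk2 and the +4 call of CesA12 fall outside that rule and were chosen after they were seen. A further marker gene is not reported here. The members and lists were chosen with earlier results of these data known.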

Additional observations from a re-analysis of the deposited data

Results flagged for a closer look

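The change between q2 and q1 differed between segments, by the normal test of the difference itself, for 8 of the 10 genes and in 16 of 46 comparisons. Among all genes compared, the share called lay between 0.475% (from +4 to +10) and 9.50% (from -4 to +4). F5H had no comparison, and PAL GRMZM2G334660 only that from -1 to +4. Values are the log2 change at the later segment minus that at the earlier one.

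From -4 to -1, C4H differed by -1.76. From -4 to +4, PAL1 differed by -1.61, PAL GRMZM2G029048 by -2.14, 4CL by -2.53, ccoaomt1 by -2.45 and bm3 by -1.95. From -4 to +10, PAL1 differed by -3.17, PAL GRMZM2G029048 by -2.13, 4CL by -2.72, ccoaomt1 by -2.07, CCR1 by -1.88 and bm3 by -1.70. At -4 itself PAL1, ccoaomt1 and C4H were not called.

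From -1 to +4, PAL1 differed by -1.84 and ccoaomt1 by -2.25, while PAL GRMZM2G334660 differed by 4.36, on levels of at most 3.25 FPKM. From -1 to +10, PAL1 differed by -3.40. Each segment was sampled from its own libraries, and the markers of photosynthesis and of dividing cells that moved with the groups were not tested for their part in these differences.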

How the results depend on the processing

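Of 34 tested member changes, all 34 kept their call with a filter of 1 FPKM, and 33 kept direction and call after median centring. The call was kept by 30 at an adjusted p under 0.01, and direction and call by 26 under either common sum. Neither the filter nor the stricter threshold can change a direction. A pseudocount of 1 FPKM cannot turn a direction either, and no test was rerun with it, so it leaves the calls unexamined. At an adjusted p under 0.01, 4 calls were lost: PAL1 at -1, PAL GRMZM2G029048 at -4 and -1, and bm1 at +4. Scaling to a common sum of FPKM turned C4H at +10 to 0.0050, bm1 at +10 to 0.064, bm1 at +4 to 0.025 and bm3 at -1 to 0.054. Without pep1 and pdk1 in that sum, bm1 at +10 was 0.050 and bm3 at -1 was 0.055, but C4H at +10 was -0.0093 and bm1 at +4 was -4.8e-04. By construction a common sum adds the same value to every gene of a segment. The count of members higher at -4, which was 5, became 8 under the common sum without pep1 and pdk1 (17.9% of all genes were higher) and 1 at a 2-fold minimum (5.19%), and the 1 higher at -1 became 0 at an adjusted p under 0.01 (5.87%) and 0 at a 2-fold minimum (4.57%). With errors scaled to the deposited p, called differences between segments numbered 3 from -4 to -1, 7 from -1 to +4, 7 from -1 to +10 and 1 from +4 to +10, against 1, 3, 1 and 0, while 12.4%, 20.3%, 21.8% and 5.68% of all genes were called with those errors. From -4 to +4 and to +10 they numbered 7 and 8, against 5 and 6, while 37.5% and 37.7% of all genes were called. No paired analysis was possible because the tables hold 1 pooled level per group, and for the same reason leaving out single libraries was not run. The planned promoter and protein comparisons were not run, for want of sequences here. Depth is unknown, so no limit for low genes such as F5H can be given.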

Other observations

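The next listed gene after the end of the PAL cluster, GRMZM2G170692, lies 59.9 kilobases further along chromosome 5 and is unnamed here. Genes on the other side of the cluster were not looked at. It had 3.95, 2.95, 2.08 and 2.93 FPKM in q2 at -4, -1, +4 and +10, against 7.49, 19.3, 3.26 and 2.49 FPKM in q1. It was lower in q2 at -4, -1 and +4 in the authors' deposited tables, with a log2 change of -2.71 ± 0.45 at -1, and was not called at +10. It was chosen by position after the cluster had been seen.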
